A study of Rattus norvegicus with 4 samples.

Results

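The transcripts of 10 genes that mark natural killer (NK) cells and T cells were followed in rat liver: *Klrk1*, *Klrd1*, *Ncr1*, *Prf1*, *Gzmb*, *Gzmm*, *Nkg7*, *Cd3e*, *Cd3g* and *Cd8a*. They were found by symbol, rows of the same symbol would have been summed, and all 10 were listed, among 16999 named genes analysed. Livers of wild type rats that inhaled sevoflurane at 4.5% or desflurane at 6%, a pair of volatile general anesthetics, were sequenced as total RNA. For each agent there was a control killed as soon as consciousness was lost (0 h) and an animal killed after 6 h of anesthesia, and each of the 4 groups held 1 library. Strain, sex and age are not given in the labels. With 1 animal in each group, no value below carries an error between replicates. Because control and anesthetized livers were also taken 6 h apart, the duration of anesthesia and the hour of harvest cannot be told apart.

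NK cells and cytotoxic T cells kill infected or altered cells by releasing granules that hold the pore-forming protein perforin and the proteases called granzymes. Receptors on the NK cell surface decide whether a target is attacked, while T cells recognize theirs through the T cell receptor, which signals through the CD3 chains. The liver sinusoids hold many lymphocytes, among them the NK cells long known as pit cells. In rats, the CD8 alpha chain encoded by *Cd8a* is carried by NK cells as well as by cytotoxic T cells, and some rat macrophages also carry it, so this gene alone does not separate them.

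Among these genes, *Klrk1* and *Cd8a* had lower values after 6 h with both agents, whereas the named row of *Gzmm* had its highest value after 6 h of desflurane. The 250 bases upstream of the start of these 3 genes are shown for that reason, read 5′ to 3′ on the strand of the gene and taken from RefSeq on the build GRCr8, which is not the build of the expression tables. They lie at chr4:164778383-164778632 on the minus strand for *Klrk1*, at chr4:104923866-104924115 on the plus strand for *Cd8a* and at chr7:10667257-10667506 on the minus strand for *Gzmm*. Capitals mark any match, on either strand, to 1 of 6 short patterns named for the factors known to bind them.
Klrk1: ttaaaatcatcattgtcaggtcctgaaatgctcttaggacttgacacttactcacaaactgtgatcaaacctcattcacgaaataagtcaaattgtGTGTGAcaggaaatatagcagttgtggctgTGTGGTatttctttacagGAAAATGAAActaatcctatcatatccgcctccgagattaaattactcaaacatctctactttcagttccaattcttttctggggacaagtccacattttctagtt
Cd8a: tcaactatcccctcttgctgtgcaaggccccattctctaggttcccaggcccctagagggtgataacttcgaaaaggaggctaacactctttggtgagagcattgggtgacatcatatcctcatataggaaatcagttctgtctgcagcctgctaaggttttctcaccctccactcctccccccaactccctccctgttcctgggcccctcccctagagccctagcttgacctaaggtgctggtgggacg
Gzmm: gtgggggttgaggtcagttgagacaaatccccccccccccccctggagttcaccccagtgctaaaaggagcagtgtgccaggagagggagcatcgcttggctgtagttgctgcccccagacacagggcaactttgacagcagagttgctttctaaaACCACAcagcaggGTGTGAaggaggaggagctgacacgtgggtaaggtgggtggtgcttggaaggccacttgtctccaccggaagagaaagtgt

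The patterns were TGTGGT for RUNX factors, TCACAC for T-box factors such as T-bet, AGGAAG for ETS factors, TTCNNNGAA for STAT factors, TGANTCA for AP-1 and, for interferon regulatory factors (IRF), GAAA followed after any 2 bases by another GAAA. Upstream sequences were found for 8 of the 10 genes. RUNX letters were present in 5 of the 8 (*Gzmb*, *Gzmm*, *Klrk1*, *Nkg7* and *Prf1*) and in 14.5% of all 33469 upstream sequences of that length. T-box letters were present in 4 of the 8 (*Gzmb*, *Gzmm*, *Klrk1* and *Nkg7*) against 11.6% of all. *Klrk1* alone of the 8 held the IRF letters, found in 3.41% of all, from position -106 to -97 before its start. The ETS letters occurred in 4 of the 8 (29.5% of all), the STAT letters in 2 (7.67% of all) and the AP-1 letters in 1 (6.34% of all). No pattern was matched upstream of *Cd8a*. A match is a description of letters and shows no binding, and its relation to the changes of these genes was not tested.

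Transcripts of these genes were scarce in whole liver. Abundance is given in TPM, a unit that corrects each gene for its length and each library for its size, and no value among the 10 genes exceeded 3.81, where albumin (*Alb*), the main product of hepatocytes, stood between 53282 and 58867 in the same libraries. In bulk tissue, fewer cells of a type and less RNA per cell cannot be told apart. The aligned bases implied by the tables ranged from 3.50 Gb in sevoflurane 0 h to 5.57 Gb in desflurane 6 h. The deposited coverage of 9 of the 10 genes was a whole number of aligned bases over a single transcript length in every library, which gives the depth behind each value. The smallest amount was 101 bases, for *Cd3e* in desflurane 6 h, and this was used as the size of 1 read. On that count, *Klrk1* rested on between 37.9 and 132 reads per library, *Cd8a* on between 30.1 and 146, *Ncr1* on at most 23.6, *Cd3g* on between 2.9 and 6.4 and *Cd3e* on at most 2. *Gzmb*, which has close relatives in the genome, gave no such length up to 2000 bases, so its value is uncertain where reads are shared.

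**Figure D1:**
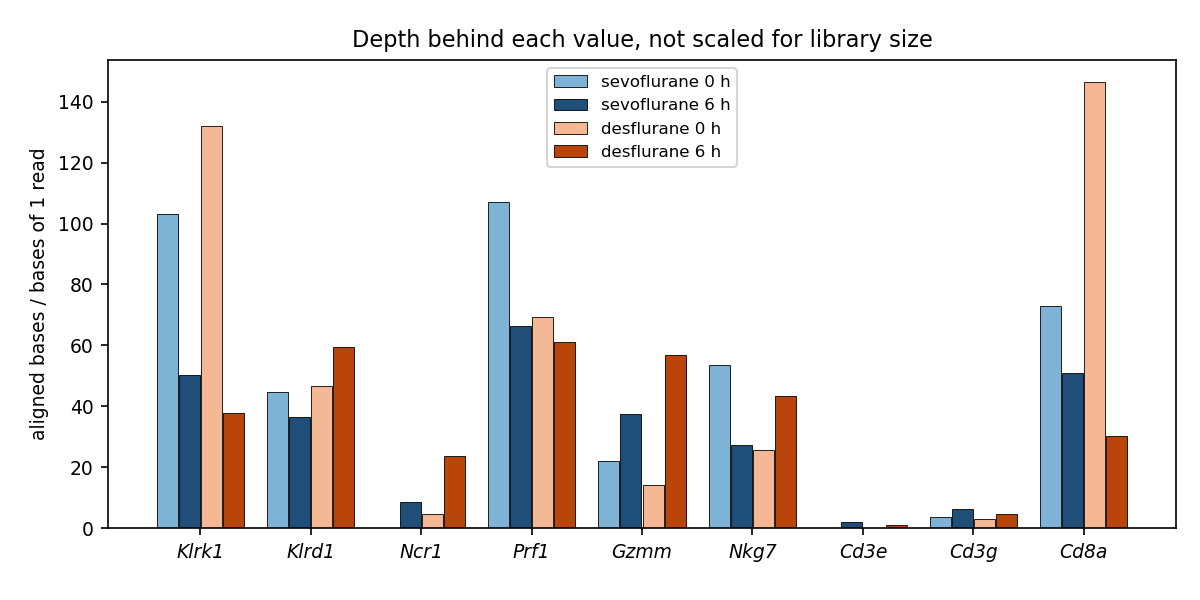
Depth behind the values of 9 genes (x axis), as aligned bases divided by the 101 bases of 1 read (y axis), not scaled for library size, with 1 bar per library and no error bars because each group holds 1 library. *Klrk1* reaches 103 and 132 in the controls, *Prf1* 107 in sevoflurane 0 h and *Cd8a* 146 in desflurane 0 h, while *Cd3g* stays at or below 6.4 and *Cd3e* at or below 2.

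Of the receptor genes, *Klrk1* was lower in both anesthetized livers. *Klrk1* encodes NKG2D, an activating receptor for stress-induced ligands, and lies on chromosome 4 from 163393217 to 163403653 (build rn6, as named in the submitters' processing notes). Its TPM was 3.81 in sevoflurane 0 h, 1.28 in sevoflurane 6 h, 3.34 in desflurane 0 h and 0.907 in desflurane 6 h. In the named row, the controls stood close together and both 6 h libraries lay well below them. It was 2.97-fold lower with sevoflurane and 3.68-fold lower with desflurane, and when the controls were exchanged it was 2.60-fold and 4.20-fold lower. Where the loci assembled at *Klrk1* were summed in place of its named row, the sevoflurane difference of log2(TPM + 1) was -0.68 in place of -1.07, the desflurane difference was -0.42 in place of -1.18, and neither was called. These sums were 5.16 in sevoflurane 0 h, 2.85 in sevoflurane 6 h, 2.87 in desflurane 0 h and 1.88 in desflurane 6 h. The controls then differed by -0.67 (desflurane 0 h minus sevoflurane 0 h), and sevoflurane 6 h lay just below desflurane 0 h. Such loci numbered 1 in desflurane 0 h and 2 in each other library. *Klrd1*, which encodes CD94, the partner chain of inhibitory and activating NKG2 receptors, lies 23291 bases from *Klrk1* on the other strand, from 163358476 to 163369925. Its TPM was 1.42 in sevoflurane 0 h, 0.795 in sevoflurane 6 h, 1.01 in desflurane 0 h and 1.22 in desflurane 6 h. The libraries at 0 h and 6 h overlapped, and the pair from desflurane went the other way from the pair from sevoflurane. *Ncr1* encodes NKp46, an activating receptor that is among the most specific NK cell markers, on chromosome 1 from 73178917 to 73226504. It was listed at 0 in sevoflurane 0 h and had a TPM of 0.407 in sevoflurane 6 h, 0.216 in desflurane 0 h and 1.03 in desflurane 6 h. Both 6 h values were above both controls, but they rested on 8.7 and 23.6 reads against 0 and 4.7, and 3 reads in sevoflurane 0 h would have given a TPM of 0.203. The direction of *Ncr1* was thus opposite to that of *Klrk1* in the same livers.

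In the named rows of the granule genes, none was called lower with both agents and both controls. The rule of size used for calls asks for a TPM above 2 in the higher library and a ratio above 2. *Prf1* encodes perforin and lies on chromosome 20 from 30915294 to 30920802. Its TPM was 2.36 in sevoflurane 0 h, 1.01 in sevoflurane 6 h, 1.04 in desflurane 0 h and 0.875 in desflurane 6 h. The sevoflurane control was high and the other 3 libraries lay close together. *Nkg7*, a granule membrane protein needed for efficient degranulation, lies on chromosome 1 from 98492873 to 98493940. It had a TPM of 2.87 in sevoflurane 0 h, 1.0 in sevoflurane 6 h, 0.942 in desflurane 0 h and 1.51 in desflurane 6 h. Here too the sevoflurane control stood above the rest, and with desflurane the 6 h value was above its control. The falls of *Prf1* (2.34-fold) and *Nkg7* (2.85-fold) with sevoflurane were similar in size to the differences between the controls, which were 2.27-fold and 3.04-fold, and against the desflurane control the ratios shrank to 1.03 for *Prf1* and 1.07 for *Nkg7*, the latter in the other direction. With assembled loci summed, *Prf1* had 2.25 in sevoflurane 0 h, 0.996 in sevoflurane 6 h, 2.75 in desflurane 0 h and 0.966 in desflurane 6 h. It was then also called lower with desflurane (-0.93 on the log2(TPM + 1) scale). Each 0 h sum was above 2 and more than 2-fold above each 6 h sum, so *Prf1* passed the rule with both agents and both controls. Its controls differed in the other direction (0.21), and the controls of *Nkg7* were no longer called different (-0.19).

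*Gzmb* encodes granzyme B, the protease that starts apoptosis in target cells, on chromosome 15 from 35413862 to 35417293. Its TPM of 0.803 in sevoflurane 0 h, 0.305 in sevoflurane 6 h, 0.663 in desflurane 0 h and 0.407 in desflurane 6 h put both 6 h libraries below both controls, at levels below the minimum of the rule. *Gzmm* encodes granzyme M, a protease found mainly in NK cells and other innate-like lymphocytes, on chromosome 7 from 12893431 to 12899004. Its TPM was 1.0 in sevoflurane 0 h, 1.18 in sevoflurane 6 h, 0.444 in desflurane 0 h and 1.69 in desflurane 6 h. Both 6 h libraries were above both controls, by little with sevoflurane (1.18-fold) and by 3.80-fold with desflurane, whose control was the lowest of the 4 libraries. Against the sevoflurane control the desflurane value was 1.68-fold higher, and no *Gzmm* value reached the minimum of 2 on the deposited scale. With assembled loci summed, which numbered 2 in sevoflurane 0 h and 1 in each other library, the TPM was 2.58 in sevoflurane 0 h and 1.18 in sevoflurane 6 h, so the sevoflurane change turned to -0.72 on the log2(TPM + 1) scale, was called lower and left the sevoflurane control as the highest library. *Gzmm* held the sixth place among the 10 genes in sevoflurane 0 h, the seventh in desflurane 0 h and the first in desflurane 6 h, where *Klrk1*, which led the other 3 libraries, was the fifth.

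**Figure D2:**
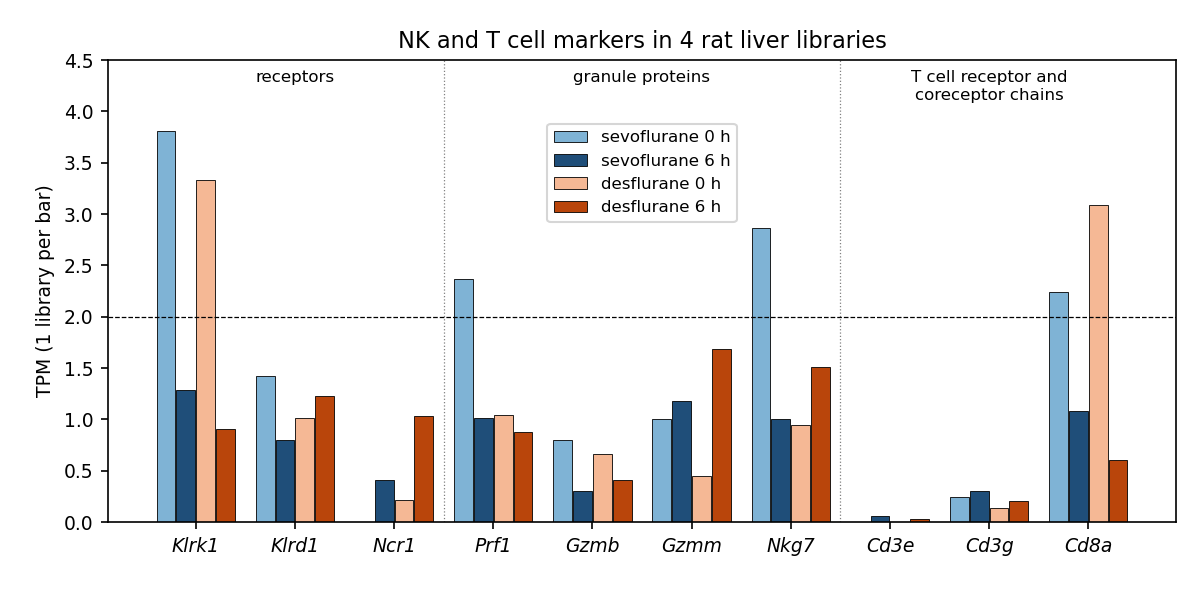
TPM (y axis) of the 10 genes (x axis), with 1 bar for each of the 4 libraries, no error bars because each group holds 1 library, and a dashed line at the minimum TPM of 2. The controls of *Klrk1* (3.81 and 3.34) and *Cd8a* (2.24 and 3.08) stand above their 6 h libraries, *Prf1* and *Nkg7* are high in sevoflurane 0 h alone, and *Cd3e* and *Cd3g* stay below 0.31.

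Of the T cell genes, *Cd8a* was lower in both 6 h livers, while *Cd3e* and *Cd3g* were too scarce to compare. *Cd8a* lies on chromosome 4 from 99239115 to 99243352, and its TPM was 2.24 in sevoflurane 0 h, 1.08 in sevoflurane 6 h, 3.08 in desflurane 0 h and 0.602 in desflurane 6 h. Both controls were above both 6 h libraries. It was 2.08-fold lower with sevoflurane and 5.12-fold lower with desflurane, and 2.86-fold and 3.73-fold lower with the controls exchanged. Summed assembled loci gave -0.40 with sevoflurane on the log2(TPM + 1) scale in place of -0.64, which was not called. With desflurane they gave -1.46 in place of -1.35, which was still called lower. The loci of desflurane 0 h began at 99215838, well before the start of the gene, so that sum may hold other transcripts. *Cd3e* and *Cd3g* encode the epsilon and gamma chains of CD3, which define T cells, and lie 16706 bases apart on chromosome 8, from 49297608 to 49308806 and from 49274960 to 49280901. *Cd3e* was listed at 0 in both controls, with a TPM of 0.057 in sevoflurane 6 h and 0.027 in desflurane 6 h. These values correspond to 2 reads and 1 read, and 3 reads would have given a TPM of between 0.081 and 0.125, so no difference was detectable at this depth. *Cd3g* had a TPM of 0.242 in sevoflurane 0 h, 0.305 in sevoflurane 6 h, 0.135 in desflurane 0 h and 0.203 in desflurane 6 h, and its groups overlapped. *Cd8b*, the partner of the CD8 alpha chain on cytotoxic T cells, was at most 0.071. The CD3 delta chain gene *Cd3d* had 0.808, 0.392, 0.659 and 0.111 in the order sevoflurane control, sevoflurane 6 h, desflurane control and desflurane 6 h. Like *Cd8a*, it was lower in both 6 h libraries than in both controls, by 2.06-fold with sevoflurane and 5.91-fold with desflurane, at levels below the minimum of the rule. The depth of *Cd3d* was not worked out. Its 0.111 in desflurane 6 h was below every *Cd3g* value, so the desflurane ratio may rest on very few reads.

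Counted over the 10 genes, 4 were called lower with sevoflurane (*Klrk1*, *Prf1*, *Nkg7* and *Cd8a*) and 0 higher, where 3.71% of the 8270 genes above the minimum were called lower and 5.04% higher. Only those 4 genes were above a TPM of 2 in either library, each through its control, so they could pass the rule in 1 direction alone. With desflurane, 2 genes (*Klrk1* and *Cd8a*) were called lower and 0 higher, against 5.55% lower and 4.1% higher of 8372 genes, and again these were the only members above the minimum. Genes as scarce as these were called more often, since among genes whose larger TPM lay between 2 and 4 the rule called 5.95% lower and 5.5% higher with sevoflurane, and 9.89% lower and 4.55% higher with desflurane. Between the controls, 2 genes (*Prf1* and *Nkg7*) were called lower in desflurane 0 h and 0 higher. The shares were 0.799% lower and 1.96% higher of 8263 genes, and 2.21% lower and 4.6% higher of the genes between 2 and 4. Here 4 members were above the minimum, *Prf1* and *Nkg7* through sevoflurane 0 h alone, so these could be called in 1 direction only. Neither call held with assembled loci summed, where *Gzmm* was called lower instead. Between the 6 h libraries no member was above the minimum and 0 were called, where 1.77% of 8229 genes were called lower and 2.21% higher in desflurane 6 h (4.52% and 4.33% of the genes between 2 and 4).

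Both 6 h libraries lay below both controls for 4 of the 10 genes (*Klrk1*, *Prf1*, *Gzmb* and *Cd8a*), a pattern shown by 19.3% of all 16999 genes and by 27.9% of the 9201 genes whose mean TPM was 1 or more. They lay above both controls for 3 (*Gzmm*, *Ncr1* and *Cd3e*), shown by 16.8% of all genes and 22.8% of the more abundant ones, and *Cd3e* counted there on the 2 reads and 1 read given above, too few for a difference to be detectable. Taken over all 10 genes, the median difference of log2(TPM + 1), a scale that understates the change of such scarce genes, was -0.45 with sevoflurane and 0.06 with desflurane. Over the 6 members whose mean TPM was 1 or more these medians were -0.69 and 0.01, and over all 9201 such genes they were 0.05 and -0.10. The summed TPM of the 10 genes was 14.8 in sevoflurane 0 h, 7.43 in sevoflurane 6 h, 10.9 in desflurane 0 h and 8.48 in desflurane 6 h, so the sums at 6 h were below both controls, with the 2 controls further apart than the 2 anesthetized livers.

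**Figure D3:**
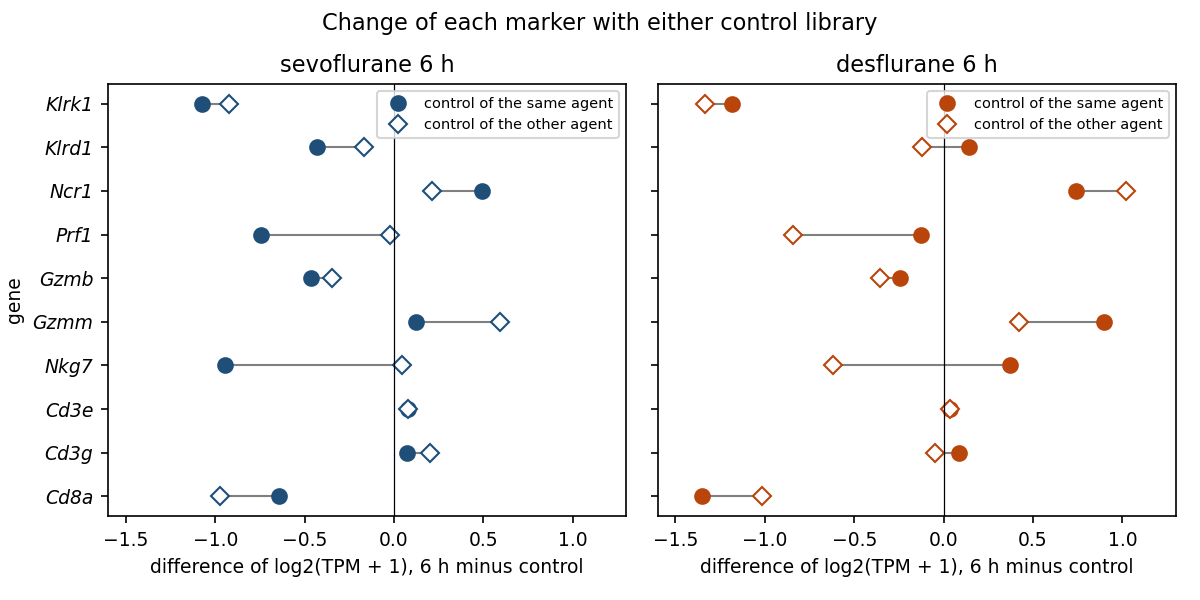
Difference of log2(TPM + 1) between each 6 h library and a control (x axis) for the 10 genes (y axis), with filled circles for the control of the same agent, open diamonds for the control of the other agent, and no error bars because each group holds 1 library. *Klrk1* and *Cd8a* stay between -0.64 and -1.35 with either control, while *Nkg7* changes sign with the control in both panels.

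The 2 agents were then used as a pair of blocks to estimate a change common to both, with limma on log2(TPM + 1) of the 8024 genes whose mean TPM was 2 or more. This fit had 1 residual degree of freedom and called 8.62% of genes. *Klrk1* was the 1 member abundant enough to enter, which it did through its controls, so it could enter only as a gene that was lower at 6 h. Its values at 6 h were both below the minimum, and its common change was -1.13 (SE 0.24, adjusted p = 0.0105, limma with Benjamini-Hochberg adjustment, lower in 2 of 2 pairs). Without the filter the adjusted p of *Klrk1* in limma was 0.45. With the minimum lowered to a mean TPM of 1, *Cd8a* had a common change of -0.996 (SE 0.25, adjusted p = 0.0421 in limma). It had 2.24 and 3.08 in the controls and 1.08 and 0.602 at 6 h, so it too could enter only as a gene lower at 6 h. Without the filter the adjusted p of *Cd8a* in limma was 0.56. Of the other 4 members that entered at a mean TPM of 1, *Gzmm* had a change of 0.51 (SE 0.25, adjusted p = 0.31 in limma). *Klrd1*, *Nkg7* and *Prf1* had adjusted p-values between 0.38 and 0.81 in limma. The call of *Klrk1* was lost on leaving out 3 of the 4 libraries in turn, with limma without blocks giving an adjusted p of 0.18 without sevoflurane 0 h, 0.10 without desflurane 0 h, 0.057 without desflurane 6 h and 0.017 without sevoflurane 6 h.

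Related genes were examined in lists of the same cells' machinery. Beside the counts in these and later lists stand the shares over all genes above the minimum. They were 3.71% lower and 5.04% higher with sevoflurane, and 5.55% lower and 4.1% higher with desflurane. In the list of NK receptors and adaptors, 28 of 31 genes were listed, 1 was called lower with sevoflurane (*Fcgr3a*, the Fc receptor CD16, from 10.8 to 5.35) and 0 were called with desflurane in either direction. Only 3 of the listed genes were above the minimum with sevoflurane and 4 with desflurane. *Fcgr3a* is also carried by macrophages, and it had 9.15 and 6.68 in the desflurane pair. *Hcst* encodes DAP10, the adaptor through which NKG2D signals, and unlike *Klrk1* it had its highest TPM in desflurane 6 h, with 0.321, 0.351, 0.967 and 1.22 in the library order used above. *Tyrobp*, the adaptor DAP12 shared with macrophages, stood at 24.2, 16.9, 22.4 and 22.8. The CD161 family varied among its members, with *Klrb1a* at 1.28, 0.498, 0.637 and 0.684, *Klrb1b* at 0.332, 0.129, 0.142 and 1.44, *Klrb1c* at 0.830, 0.051, 0.596 and 0.028, and *Klrb1* listed at 0 throughout. Of the ligands of NKG2D, *Raet1l* and *Rrlt* were listed and neither exceeded a TPM of 0.08. *Mill1*, looked up beside them, was listed at 0 throughout.

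Among cytotoxic granule genes, 18 of 22 were listed, 0 were called with sevoflurane, and with desflurane 1 was called higher and 1 lower. Of those listed, 7 were above the minimum with sevoflurane and 8 with desflurane. *Gzmk*, granzyme K, had 1.61 in sevoflurane 0 h, 0.684 in sevoflurane 6 h, 0.457 in desflurane 0 h and 2.31 in desflurane 6 h, so it rose 5.05-fold with desflurane from the lowest of the 4 values. *Tnfsf10*, the death ligand TRAIL, fell from 7.76 to 3.44 with desflurane and had 8.77 and 7.01 with sevoflurane. *Gzma*, granzyme A, was the most abundant granzyme gene, at 5.49, 3.24, 3.97 and 3.36, and was not called.

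The list of T cell receptor and signaling genes, with 25 of 30 genes listed, had 1 gene called lower with sevoflurane (*Rhoh*, from 2.20 to 0.911) and 0 called with desflurane. Only 4 of its genes were above the minimum with sevoflurane and 3 with desflurane. *Rhoh* encodes a GTPase of blood cells needed for T cell receptor signaling, and its controls differed, at 2.20 and 1.04. *Cd4*, which in rats is also carried by macrophages, stood at 7.35, 7.39, 5.71 and 7.99, *Cd2* at 0.395, 0.133, 0.557 and 0.698 and *Cd247*, the zeta chain, at 0.072, 0.206, 0.50 and 0.310. Among transcription factors, 14 of 19 were listed, 3 were above the minimum with each agent, and *Id2* was called lower with both agents, from 80.0 to 11.7 and from 69.1 to 17.0. *Id2* is needed for NK cell development but is not restricted to lymphocytes, and *Tbx21*, which encodes T-bet, had 0.562, 0.514, 0.717 and 0.248.

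Of the cytokines and cytokine receptors, 25 of 27 were listed and 7 were above the minimum with each agent. By the rule, 2 were called lower with sevoflurane, 3 were called lower with desflurane and 0 were called higher. *Xcl1*, the chemokine lymphotactin that NK cells and activated CD8 T cells release, stood at 2.78, 0.681, 3.48 and 0.339 and fell with each agent, with both controls above both 6 h libraries as for *Klrk1* and *Cd8a*. *S1pr1*, a receptor for sphingosine 1-phosphate on lymphocytes and endothelium, fell as well, at 40.8, 9.29, 43.2 and 8.27. *Ccl4* fell from 2.36 to 0.448 with desflurane and had 3.51 and 2.37 with sevoflurane. *Ccl5* stood at 4.16, 2.31, 4.46 and 4.35, *Il2rb*, the receptor chain for interleukins 2 and 15, at 1.61, 0.657, 1.22 and 0.998, and *Il15*, the cytokine on which NK cells depend, at 1.79, 3.09, 2.64 and 2.07, none of them called. *Ifng*, interferon gamma, was listed at 0 in all 4 libraries.

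**Figure D4:**
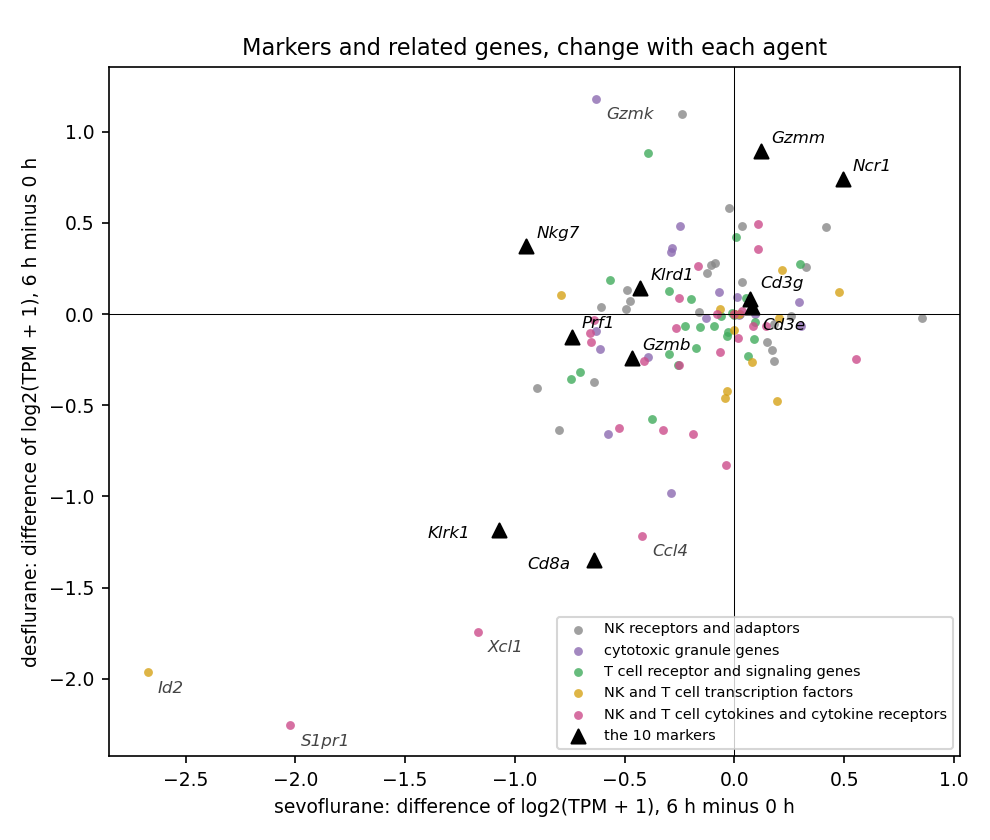
Difference of log2(TPM + 1) between 6 h and 0 h with sevoflurane (x axis) and with desflurane (y axis), 1 point per gene, with the 10 markers as black triangles and the related genes colored by list; no point has an error bar because each group holds 1 library. *Klrk1* and *Cd8a* lie with *Xcl1*, *Id2* and *S1pr1* in the lower left, *Gzmm* and *Ncr1* in the upper right.

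Markers of other cells in the liver were read beside these genes. The summed TPM of 12 pan-leukocyte genes was 51.0 in sevoflurane 0 h, 37.6 in sevoflurane 6 h, 52.1 in desflurane 0 h and 51.9 in desflurane 6 h, with *Ptprc*, the leukocyte antigen CD45, at 5.38, 3.32, 5.43 and 4.84. As a percentage of those sums the 10 markers came to 28.9%, 19.7%, 20.9% and 16.3% in the same order. The general leukocyte level was thus lowest in sevoflurane 6 h and nearly level between the desflurane libraries. The named rows of *Klrk1* and *Cd8a* differed most with desflurane. With assembled loci summed, the difference of log2(TPM + 1) of *Klrk1* was larger with sevoflurane (-0.68) than with desflurane (-0.42). That of *Cd8a* was still larger with desflurane (-1.46, against -0.40 with sevoflurane). The part of the general leukocyte level in the results was not tested. The 12 macrophage genes summed to between 524 and 683, lowest in sevoflurane 6 h and highest in desflurane 6 h, with 0 called, and *Clec4f*, a Kupffer cell marker, stood between 112 and 141.

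The 8 red blood cell genes, which would mark blood left in the tissue, summed to 654 and 1029 at 0 h and to 1731 and 1919 at 6 h. All 8 had positive changes with both agents and 6 were called higher with sevoflurane and 0 with desflurane, with *Hbb* at 291, 797, 491 and 872. That split depended on the settings, since 4 were called higher with desflurane after median of ratios scaling, and with the controls exchanged 0 were called with sevoflurane and 6 with desflurane. *Hba1* (160, 411, 233 and 465) and *Hba-a2* (158, 411, 232 and 463) had nearly the same values in every library. The counts and sums of these genes may therefore hold the same signal more than once. These higher sums at 6 h stood beside lower *Klrk1* and *Cd8a*, and their part in that change was not tested. B cell genes summed to between 2.89 and 4.47 (8 listed, 0 called), neutrophil genes to between 3.02 and 4.48 (9 listed, *S100a8* called higher with sevoflurane, *S100a9* lower with desflurane), dendritic cell genes to between 2.79 and 3.27 (5 listed, 0 called) and platelet genes to between 1.23 and 2.99 (5 listed, *Pf4* called higher with desflurane). Sinusoidal endothelial genes summed to between 121 and 143 (6 listed, 0 called), stellate cell genes to between 43.9 and 52.3 (7 listed, with *Rgs5* higher and *Pdgfrb* lower with sevoflurane), bile duct genes to between 6.90 and 8.68 (5 listed, 0 called) and hepatocyte genes to between 94891 and 106449 (8 listed, 0 called).

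**Figure D5:**
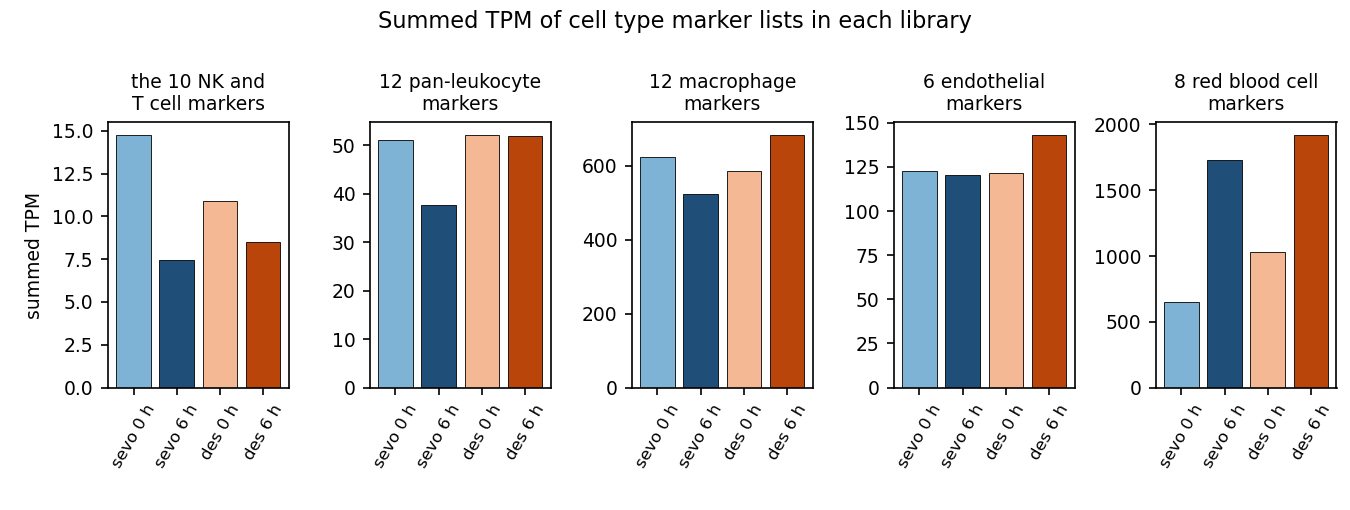
Summed TPM (y axes, each with its own scale starting at 0) of the 10 NK and T cell markers and of 4 lists of other cell type markers in the 4 libraries (x axes), 1 bar per library with no error bars. The 10 markers sum to 14.8 and 10.9 at 0 h and to 7.43 and 8.48 at 6 h, and the red blood cell markers to 654 and 1029 at 0 h and to 1731 and 1919 at 6 h.

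The genes whose levels followed *Klrk1* and *Gzmm* most closely were sought among 9195 other genes. The measure was the root mean square distance between centered log2(TPM + 1) profiles of named rows over the 4 libraries. It is loose with so few libraries, and its scale understates the change of scarce genes such as *Klrk1* and *Gzmm*. *Phf11* (distance 0.027), *Nrep* (0.043) and *Stx2* (0.061) were nearest to *Klrk1*, with *Phf11* at 15.6 in sevoflurane 0 h, 6.74 in sevoflurane 6 h, 13.3 in desflurane 0 h and 5.37 in desflurane 6 h. *Art4* (0.017), *Slc30a3* (0.035) and *Ngdn* (0.051) were nearest to *Gzmm*, with *Art4* at 0.973, 1.20, 0.433 and 1.63.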

How the data were processed

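Total RNA from liver was sequenced in 4 libraries, 1 per group, grouped by their titles. The submitters' processing notes name HISAT2, SAMtools, StringTie and the build rn6, and the annotation and tool versions were not given in the sources used here. For each library, the authors deposited 1 table with coverage, FPKM and TPM per gene. The deposited TPM was handled as a score, because assembled loci alone fill the usual total of the scale and named genes add between 0.766 and 0.789 of it again. The deposited coverage signal is the mean depth per base. FPKM as deposited by the authors was used with coverage to obtain aligned bases per library. The tables hold no read counts. Reads of 101 bases behind a gene were obtained as coverage times the shortest length, up to 2000 bases, that gave whole numbers in all libraries, and how many independent fragments they make is not known.

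Rows of the same symbol were summed, rows of a span up to 200 bp were dropped, and 14 symbols missing from a table, none of them discussed here, counted as 0 there. Genes were called with a TPM above 2 in the higher library and a ratio above 2, without p-values. The common change was tested with limma 3.58.1 in R 4.3.3 (eBayes with trend, two-sided, agent as a block). Both steps were tested on simulated data. Python 3.11.15 with pandas 2.3.3 was used for the rest. Upstream sequences came from RefSeq on GRCr8. Alternatives changed the ratio, minimum, scaling, control, pseudocount, filter, block and use of assembled loci.

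The 10 genes and all lists were chosen with earlier results of these data known. The genes named were the 10 members, a fixed set of NK and T cell genes, the most changed called genes of each list, defining markers of other cells, and the 3 genes nearest to *Klrk1* and to *Gzmm*. *Raet1l*, *Rrlt* and *Mill1* were named after their values were seen.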

Additional observations from a re-analysis of the deposited data

Results flagged for a closer look

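A pair of genes had changes of opposite sign with the 2 agents. *Nkg7* had a difference of log2(TPM + 1) of -0.95 with sevoflurane and 0.37 with desflurane, and *Klrd1* had -0.43 and 0.14. With 1 animal per group, the difference between the agents was not tested. For *Nkg7* the controls differed by -0.99 on the same scale (desflurane 0 h minus sevoflurane 0 h), and for *Klrd1* by -0.27.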

How the results depend on the processing

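Scaling by the median of ratios kept every count of called members, and rescaling over named genes alone added *Gzmm*, called higher with desflurane. A minimum TPM of 5 left 0 members in each of the comparisons with sevoflurane, with desflurane and between the controls, since no member reached it. A ratio above 3 left 0 with sevoflurane and 1 between the controls (*Nkg7*). With a minimum of 1, the count with desflurane went from 2 to 4 (2 higher and 2 lower) and that between the 6 h libraries from 0 to 1. Against the control of the other agent 2 members, *Klrk1* and *Cd8a*, were lower with sevoflurane, where *Nkg7* changed sign (0.046).

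Assembled loci in place of named genes, present in all libraries for 7 members, reversed *Prf1* between the controls (0.21). They brought *Klrk1* to -0.68 with sevoflurane and -0.42 with desflurane and *Cd8a* to -0.40 with sevoflurane, below the rule, whereas *Prf1* with desflurane (-0.93), *Gzmm* with sevoflurane (-0.72, against 0.12 for the named gene) and between the controls (-1.31), and *Nkg7* (1.34) and *Cd8a* (-0.81) between the 6 h libraries were then called. *Nkg7* between the controls (-0.19) was then not called. The loci of *Klrk1* numbered 1 in desflurane 0 h and 2 in each other library, so these sums depend on how a gene was split.

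Of the related NK and T cell genes, 5 were called with sevoflurane and 6 with desflurane. Over all genes above the minimum, 3.71% were called lower and 5.04% higher with sevoflurane, and 5.55% lower and 4.1% higher with desflurane. With a ratio above 1.5 the counts of related genes were 9 and 10, and with a minimum of 5 they were 3 and 3. With sevoflurane, a ratio above 3 gave 3, a minimum of 1 gave 13 and the other control gave 3.

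In limma, 1 member passed the threshold, 2 with a minimum mean TPM of 1 and 0 without a filter, where 0 of 16999 genes passed in limma, 1709 genes and 3 members had an unadjusted p under 0.05, and the lowest adjusted p of a member was 0.43. With a library left out and no blocks, between 0 and 1 members passed. Without the agent as a block and with all libraries, *Klrk1* had an adjusted p of 0.021 in limma. A minimum mean TPM of 5 left no member to test. Depth limits *Cd3e*, *Cd3g* and *Ncr1* most, as given above.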
